A study of Mus musculus with 10 samples.

Results

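The genes described here are 10 that encode the collagen matrix, the proteins that build it and the contractile proteins of the cells that make it, namely Col1a1, Col1a2, Col3a1, Col4a1, Serpinh1, Sparc, Lum, Dcn, Acta2 and Tagln. They were picked by symbol, each matched 1 row of the gene table, and they are 10 of the 31053 genes in the files. All 10 had a mean of at least 10 UMIs per 1000000 (CPM, where a UMI is a unique molecular identifier that marks 1 captured RNA molecule) over the tissues, so none was lost to the filter on low levels.

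Fibrillar collagens are secreted as procollagen, a triple helix of chains that is wound in the endoplasmic reticulum with the help of the collagen chaperone HSP47 and assembled outside the cell into fibrils. Col1a1 and Col1a2 encode the chains of type I collagen, Col3a1 the chain of type III collagen, and Serpinh1 encodes HSP47. Col4a1 encodes a chain of type IV collagen, which forms the sheets of basement membranes, Sparc a collagen-binding matricellular protein, and Lum and Dcn the proteoglycans lumican and decorin, which coat fibrils. Acta2 (smooth muscle α-actin) and Tagln (transgelin) encode contractile proteins of vascular smooth muscle, and in the liver Acta2 is also a marker of activated stellate cells, the fat-storing pericytes that become the main collagen source in fibrosis.

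Frozen mouse tissue was cut at 10 µm onto Visium arrays (10x Genomics), whose spots carry barcoded capture oligonucleotides and each take up RNA from several cells. Before harvest, the study perfused the ABC-Myc mouse (described below) with EDTA in PBS and then with collagenase type IV. No separate harvest is described for healthy livers. What the enzyme did to the sections was not tested here. NEJ146 is represented by 4 sections, which the labels call adjacent, and NEJ634, NEJ687, NEJ723, NEJ638, NEJ654 and NEJ677 gave 1 section apiece, which makes 10 sections of 7 tissues. The labels call every tissue hepatoblastoma and give no age, sex or genotype per section. In the text of the study, NEJ146, NEJ634, NEJ687 and NEJ723 are tumors of ABC-Myc mice. It counts 4 tumors and 3 healthy livers, and does not name the livers. By elimination these would be NEJ638, NEJ654 and NEJ677, although their labels say hepatoblastoma. Since no label settles it, no sample was assigned to a normal group and every tissue stands alone. ABC-Myc mice are C57BL/6J mice in which Cre, under the albumin enhancer and promoter, removes a stop cassette ahead of a human MYC transgene driven by the CAG promoter. The transgene is therefore directed to albumin-expressing cells of the hepatocyte lineage.

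Tissue spots held 39280329 to 117077925 UMIs per section, with a median of 12134 to 28926 UMIs per spot. The fetal liver gene Afp was at 2023 to 4248 CPM in NEJ146, NEJ634, NEJ687 and NEJ723 and at 3.79 to 9.63 CPM in NEJ638, NEJ654 and NEJ677, which the labels also call hepatoblastoma. Tissue spots were those called by the authors, except in NEJ146, for which no call was used here and spots of at least 8000 UMIs were taken. This cutoff kept 4171 to 4878 of the 4992 spots of a NEJ146 section. In the tissues with calls the median off-tissue spot held 6660 to 11895 UMIs, so the cutoff may keep off-tissue spots. Off the called tissue lay 6.81% of all UMIs in NEJ687 and 27.3% to 43.0% in the other 5 tissues with calls, and the summed level of the 10 genes off tissue was 393 to 2538 CPM there against 480 to 2561 CPM on tissue. Of the spot barcodes, 4989 occurred in every section, since barcodes name array positions and not cells. A tissue with 1 section is given with the exact Poisson 95% interval of its count, which covers counting error only, and NEJ146 with the mean ± SD of its 4 adjacent sections, which reflects cutting and library making within 1 tissue. Variation from animal to animal was not measured, and tissues are therefore compared without a test.

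The members lie on 8 chromosomes in GENCODE M21 on GRCm38, the build matched by the mm10 label of the tissues with 1 section. Col4a1 (chromosome 8, 11198423 to 11312826, minus strand) and Col4a2 (11312805 to 11449287, plus strand) are arranged head to head and share 22 bases at their starts. Dcn (chromosome 10, 97479609 to 97518143) and Lum (97565128 to 97572703) are neighbors on the plus strand with 46984 bases between them. RefSeq promoters on GRCm38.p6, 300 bases that reach just past the start of the RefSeq gene, were at hand for 6 of the 10 members. That start is the GENCODE start for Col3a1, Col4a1 and Serpinh1 and lies inside the GENCODE gene for Acta2 (217 bases from its start), Col1a2 (804 bases) and Sparc (3103 bases). Those of Col1a2 (chr6:4505368-4505667, plus strand), Col3a1 (chr1:45311288-45311587, plus strand), Col4a1 (chr8:11312777-11313076, minus strand) and Acta2 (chr19:34255324-34255623, minus strand) are shown because these genes stand for the fibrillar, basement membrane and contractile members, whose levels and positions differed in the results. Capitals mark CCAAT on either strand (CCAAT or ATTGG).
Col1a2: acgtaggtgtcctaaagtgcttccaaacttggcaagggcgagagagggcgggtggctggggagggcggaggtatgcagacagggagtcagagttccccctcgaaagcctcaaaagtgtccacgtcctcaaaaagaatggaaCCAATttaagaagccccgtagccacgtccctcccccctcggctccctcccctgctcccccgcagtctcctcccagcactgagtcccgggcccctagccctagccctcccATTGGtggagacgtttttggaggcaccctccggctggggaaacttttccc
Col3a1: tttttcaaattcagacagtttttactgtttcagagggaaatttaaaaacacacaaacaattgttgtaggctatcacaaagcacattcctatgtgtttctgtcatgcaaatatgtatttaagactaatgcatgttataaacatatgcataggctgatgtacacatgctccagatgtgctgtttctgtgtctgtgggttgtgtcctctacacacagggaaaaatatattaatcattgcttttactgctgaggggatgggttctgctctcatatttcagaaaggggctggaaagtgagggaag
Col4a1: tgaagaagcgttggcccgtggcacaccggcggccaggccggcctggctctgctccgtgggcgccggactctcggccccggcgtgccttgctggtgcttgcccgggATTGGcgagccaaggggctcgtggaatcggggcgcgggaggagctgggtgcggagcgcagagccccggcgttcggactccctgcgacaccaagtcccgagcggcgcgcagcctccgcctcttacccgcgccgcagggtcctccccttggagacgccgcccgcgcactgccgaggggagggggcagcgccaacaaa
Acta2: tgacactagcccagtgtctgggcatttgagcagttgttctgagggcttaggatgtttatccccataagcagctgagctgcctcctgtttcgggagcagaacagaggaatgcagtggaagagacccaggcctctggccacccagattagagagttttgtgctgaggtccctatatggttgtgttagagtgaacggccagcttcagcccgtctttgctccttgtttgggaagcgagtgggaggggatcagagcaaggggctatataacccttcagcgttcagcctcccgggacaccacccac
CCAAT was found 2 times in the Col1a2 promoter, 1 time in that of Col4a1 and in none of those of Col3a1, Serpinh1, Sparc and Acta2, and 37.4% of all 32851 promoters of this length hold it. The CArG box, the serum response factor motif known from smooth muscle genes, was searched on both strands as CC, 6 bases of A or T, and GG. This exact pattern had no match in the 6 promoters, and 1.63% of all promoters hold 1. The Acta2 promoter holds ccctatatgg and ccttgtttgg, each 1 base away from the pattern. Sequences with a changed base were not counted, so the lack of an exact match does not mean that a CArG box is absent. GC content was 37.7% in the Col3a1 promoter, 54.7% in Acta2, 61.0% in Col1a2 and 74.0% in Col4a1.

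Type I and type III collagen were highest in NEJ634. Col1a1 was at 310 CPM in NEJ634 (95% interval 306 to 315), 92.6 CPM in NEJ723, 68.4 ± 12.4 CPM (SD, n = 4 sections) in NEJ146, 56.3 CPM in NEJ638, 48.1 CPM in NEJ687, 14.1 CPM in NEJ654 and 7.92 CPM in NEJ677. Col1a2, the partner chain, was at 356 CPM in NEJ634 (351 to 361), 117 in NEJ723, 87.7 ± 11.9 (SD, n = 4 sections) in NEJ146, 87.2 in NEJ638, 51.9 in NEJ687, 31.1 in NEJ654 and 19.6 in NEJ677. NEJ634 was thus 3.32-fold above the next tissue for Col1a1 and 3.02-fold for Col1a2, as ratios of CPM + 1, which is the scale of every such fold here. Col3a1 was at 578 CPM in NEJ634 (571 to 584), 266 in NEJ638, 165 ± 16.7 (SD, n = 4 sections) in NEJ146, 143 in NEJ687, 126 in NEJ723, 97.9 in NEJ654 and 68.9 in NEJ677. It was 2.17-fold above NEJ638 and 3.48-fold above NEJ146, the next highest of the tissues that the study calls tumors. In whole sections, more cells that express a gene and more RNA per cell cannot be told apart.

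The collagen chaperone was highest in the same tissue. Serpinh1 was at 146.3 CPM in NEJ634 (143 to 149), 45.1 in NEJ638, 42.8 ± 3.94 (SD, n = 4 sections) in NEJ146, 33.7 in NEJ723, 31.7 in NEJ687, 17.3 in NEJ654 and 14.9 in NEJ677, so that NEJ634 lay 3.196-fold above the next tissue. The order of the rest was not resolved between NEJ638 and NEJ146, between NEJ723 and NEJ687, or between NEJ654 and NEJ677.

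The basement membrane chain had another order. Col4a1 was at 353 CPM in NEJ634 (348 to 358) and 345 CPM in NEJ723 (339 to 350), which were not separated, followed by 138 in NEJ687, 116 ± 12.3 (SD, n = 4 sections) in NEJ146, 111 in NEJ638, 59.5 in NEJ677 and 55.2 in NEJ654. Its head-to-head partner Col4a2 kept a like ratio to it, with 1.27 to 1.598 Col4a1 UMIs per Col4a2 UMI over the 7 tissues.

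Sparc, whose protein binds collagen and calcium, was at 466 CPM in NEJ634 (461 to 472), 332 in NEJ638, 272 in NEJ723, 209 in NEJ687, 188 in NEJ654, 178 ± 23.6 (SD, n = 4 sections) in NEJ146 and 159 in NEJ677. NEJ634 was 1.40-fold above NEJ638, a difference of 0.49 on the log2 scale that was 0.02, and no longer separated, with size factors from median ratios in place of totals. The other 6 tissues formed a chain in which no neighbors were separated.

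The proteoglycans differed from each other although the genes are neighbors. Lum was at 101 CPM in NEJ634 (98.3 to 104), 44.5 ± 6.44 (SD, n = 4 sections) in NEJ146, 33.8 in NEJ638, 26.0 in NEJ723, 19.1 in NEJ654, 17.6 in NEJ687 and 10.998 in NEJ677, and NEJ634 was 2.24-fold above NEJ146. Dcn was at 177 ± 24.5 CPM (SD, n = 4 sections) in NEJ146, 170 in NEJ654, 169 in NEJ634, 161 in NEJ638 and 132 in NEJ677, none of which was separated from its neighbor, at 99.2 in NEJ687 and at 37.7 (35.9 to 39.5) in NEJ723. The number of Lum UMIs per Dcn UMI ran from 0.0831 in NEJ677 and 0.112 in NEJ654 to 0.599 in NEJ634 and 0.689 in NEJ723, with 0.251 ± 0.0113 (SD, n = 4 sections) in NEJ146. Over the 7 tissues, Dcn had the weakest likeness to the mean log2(CPM + 1) of the 10 members (Pearson r = 0.052, 7 tissues, against 0.82 to 0.98 for the other 9), a mean in which each gene itself takes part.

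The contractile genes were low in NEJ654 and NEJ677. Acta2 was at 49.95 CPM in NEJ634 (48.1 to 51.8), 26.8 ± 3.36 (SD, n = 4 sections) in NEJ146, 26.2 in NEJ687, 21.0 in NEJ723, 15.2 in NEJ638, 4.52 in NEJ654 and 1.65 in NEJ677, the last from 65 UMIs (1.28 to 2.11). Tagln was at 33.3 ± 3.29 CPM (SD, n = 4 sections) in NEJ146, 31.7 in NEJ634, 21.1 in NEJ687, 17.5 in NEJ638, 14.5 in NEJ723, 5.29 in NEJ654 and 5.22 in NEJ677. NEJ634 was 1.83-fold above NEJ146 for Acta2 and not separated from it for Tagln.

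**Figure D1:**
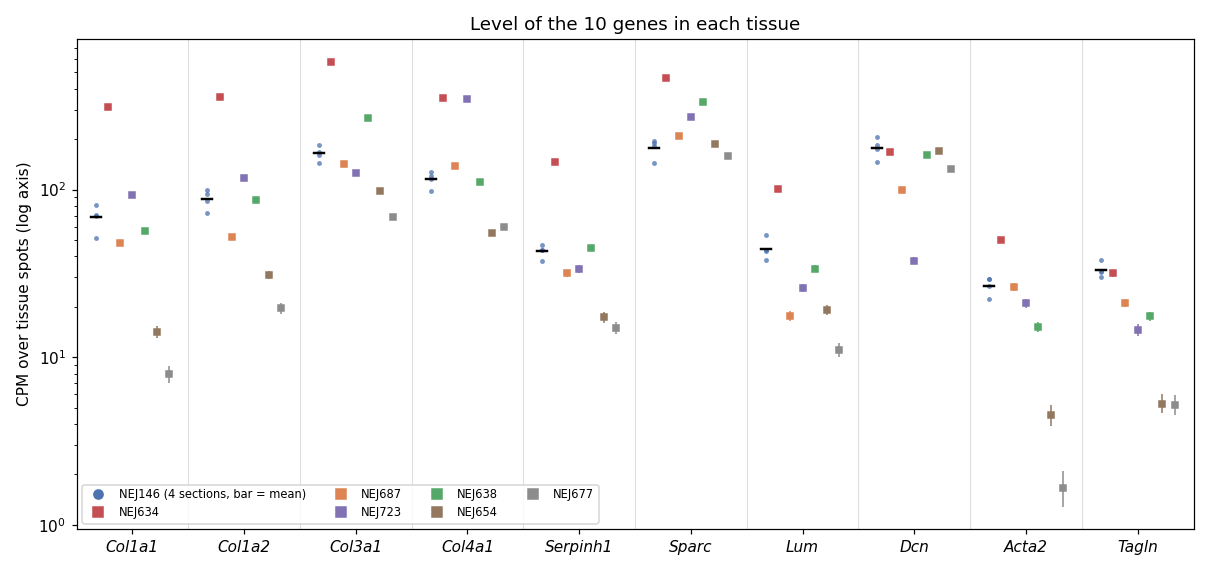
CPM over tissue spots (log axis) of the 10 genes in the 7 tissues. Squares are single sections with the exact Poisson 95% interval, small circles the 4 NEJ146 sections with their mean as a bar. NEJ634 stands above every other tissue for Col1a1, Col1a2, Col3a1, Serpinh1, Sparc (not with median-ratio size factors, where the difference from NEJ638 is 0.02 on the log2 scale), Lum and Acta2, shares the top with NEJ723 for Col4a1, and lies among others for Dcn and Tagln.

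Of the 60 steps between neighbors in the orders of the 10 genes, 29 were separated. These had a gap of at least 2 times the SD of log2(CPM + 1) over the NEJ146 sections (0.13 to 0.27 for the members). Between tissues with 1 section, the intervals also had to be free of overlap, while steps with NEJ146, which has no interval, rest on the gap alone. NEJ146 section 4 had the lowest level of all 10 genes among the 4 sections, for example 51.5 CPM of Col1a1 against 70.0 to 81.2 CPM in sections 1 to 3.

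At least 2-fold above the highest of the other 6 tissues in NEJ634 were 5 of the 10 members (Col1a1, Col1a2, Col3a1, Serpinh1 and Lum), beside 0.187% of the 8021 genes that averaged 10 CPM or more (15 genes), a share that the members themselves enter. Against NEJ146, NEJ687 and NEJ723 alone, the same 5 members were 2-fold higher in NEJ634, beside 0.299% of all genes. By any margin, 8 of the 10 were above all of those 3 in NEJ634, beside 27.8% of all genes. None was 2-fold below the lowest of those 3 tissues, beside 0.0873% of all genes. With size factors from median ratios in place of totals, which shift NEJ634 by 0.35 and NEJ638 by -0.11 on the log2 scale against the mean of the tissues, 3 of the 10 were 2-fold above the other 6 tissues, beside 0.0889% of all genes, and Col3a1 and Lum were at 0.65 and 0.76 on the log2 scale. Under the same scaling, Col4a1 turned from 0.03 to -0.03 against its highest comparator. Earlier results of these data were known when the members were chosen, so their count is a description.

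Fibrillar composition differed between tissues along with the level. Col3a1 UMIs per Col1a1 UMI were 1.36 (95% exact binomial interval 1.31 to 1.42) in NEJ723, 1.86 in NEJ634, 2.44 ± 0.249 (SD, n = 4 sections) in NEJ146 and 2.97 in NEJ687, and 4.73 in NEJ638, 6.94 in NEJ654 and 8.71 (7.74 to 9.82) in NEJ677. The 4 tissues that the study calls tumors did not overlap with the other 3 in this ratio, which 26.6% of all genes of at least 10 CPM share when set against Col1a1. Col1a1 UMIs per Col1a2 UMI were 0.776 ± 0.051 (SD, n = 4 sections) in NEJ146, 0.790 to 0.925 in NEJ634, NEJ687 and NEJ723, and 0.404 to 0.646 in NEJ638, NEJ654 and NEJ677, again without overlap, beside 15.2% of all genes when set against Col1a2. Capture can differ between transcripts, so a ratio is read only across tissues and not as the ratio of the proteins.

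The lowest of NEJ146, NEJ634, NEJ687 and NEJ723 was above the highest of NEJ638, NEJ654 and NEJ677 for 2 of the 10 members, beside 44.1% of all genes of at least 10 CPM. These were Col4a1, by 116 against 111 CPM, which is within the spread of the NEJ146 sections, and Acta2, by 21.0 in NEJ723 against 15.2 CPM in NEJ638. None of the 10 was 2-fold higher on that side, beside 9.71% of all genes, and none was lower in all 4, beside 18.1%. NEJ638 lay inside the range of the 4 for 8 of the 10 members, beside 27.2% of all genes. NEJ654 and NEJ677 were the lowest tissues for 7, beside 40.6% of all genes, namely Col1a1, Col1a2, Col3a1, Col4a1, Serpinh1, Acta2 and Tagln. The median over the members of the difference in log2(CPM + 1) between the median of the 4 tissues and that of the 3 was 1.38, beside 0.41 for all genes of at least 10 CPM.

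Other matrix genes were read from lists chosen, like the members, with earlier results known. Over all genes that averaged 10 CPM or more, 0.299% were 2-fold higher in NEJ634 than in NEJ146, NEJ687 and NEJ723, and 0.0873% were 2-fold lower. Of 8 other collagen chains at that level, 3 were 2-fold higher in NEJ634 than in those 3 tissues and none was 2-fold lower. They were Col5a2 (2.48-fold) and Col5a1 (2.32-fold), chains of type V collagen that starts fibrils, and Col6a3 (2.398-fold), a chain of the beaded filaments around cells. Of 7 matricellular genes and fibronectin, 2 were higher, Spp1 (osteopontin, 351 CPM, 3.18-fold) and Postn (periostin, 51.8 CPM, 2.82-fold), and of 3 matrix turnover genes 1 was higher, the gelatinase gene Mmp2 (31.4 CPM, 2.19-fold). Against all of the other 6 tissues, 3 collagen chains, 1 matricellular gene and 0 matrix turnover genes were 2-fold higher in NEJ634, beside 0.187% of all genes. The matricellular and fibronectin list summed to 1261 CPM in NEJ634 and 1429 CPM in NEJ638. None of 10 collagen-modifying enzymes, 7 basement membrane genes, 2 further leucine-rich proteoglycans, 4 TGF-β ligands and receptors or 5 further smooth muscle genes was 2-fold higher or lower in NEJ634. Their median differences from the median of the 3 tissues were 0.20 for the enzymes, 0.53 for the basement membrane, 0.98 for the proteoglycans, 0.63 for the TGF-β genes and 0.82 for the smooth muscle genes on the log2 scale, against 1.63 for the 10 members and 0.10 for all genes.

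Marker lists of cell types that a liver spot can hold moved in part with these levels. The biliary list summed to 518 CPM in NEJ634 and 606 CPM in NEJ723, against 43.2 to 163 CPM in the other 5 tissues. It is not particular to bile ducts, since the study uses its genes Krt19 and Epcam as hepatoblastoma markers. Well inside the tissue of NEJ634, the epithelial genes Cdh1 (204 CPM) and Cldn7 (196 CPM) made up most of its 545 CPM. The stellate cell list summed to 133 to 260 CPM in NEJ146, NEJ634, NEJ687 and NEJ723 and to 386 to 533 CPM in NEJ638, NEJ654 and NEJ677, and 7 of its 9 genes of at least 10 CPM were lower in all of the 4 than in any of the 3, beside 18.1% of all genes. The other 2 were higher in all of the 4, beside 44.1% of all genes, namely Cygb (10.6 to 37.9 against 4.84 to 9.42 CPM) and the PDGF receptor gene Pdgfrb (12.9 to 32.3 against 6.54 to 12.4 CPM). Among the 7 were Ecm1 (18.9 to 105 against 198 to 306 CPM), Angptl6 (3.05 to 12.2 against 22.0 to 32.8 CPM) and the VIP receptor gene Vipr1 (3.83 to 8.53 against 15.0 to 18.7 CPM). Endothelial markers summed to 136 to 326 CPM with no gene 2-fold higher or lower in NEJ634, although 4 of their 8 genes were also lower in all of the 4 than in any of the 3. Hepatocyte markers, with 6 of 8 genes lower in the same way, summed to 24205 to 33535 CPM in the 4 and 92972 to 126911 CPM in the 3. The portal fibroblast and mesenchyme list was highest in NEJ634, at 189 CPM, against 131 ± 12.7 (SD, n = 4 sections) in NEJ146, 113 in NEJ723, 92.6 in NEJ638, 69.3 in NEJ687, 55.2 in NEJ654 and 44.6 in NEJ677. Macrophage markers summed to 734 to 1894 CPM in the 4 and 405 to 697 CPM in the 3, and mesothelial markers to 0.484 to 7.78 CPM, with 5 of their 7 genes at 0 in NEJ677. Erythroid markers were lower in NEJ634 (936 CPM) than in NEJ146, NEJ687 and NEJ723 (2509 to 9500 CPM). The difference was 2-fold or more for 5 of 6 genes, beside 0.0873% of all genes. The part of these cell types in the levels of the 10 genes was not tested.

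The sections showed where the fibrillar collagens lay. As UMIs of Col1a1, Col1a2 and Col3a1 per 10000 UMIs of a spot, over spots of at least 500 UMIs, the median spot was at 9.77 in NEJ634 and 0.484 to 2.62 in the other 9 sections. At least 20 per 10000 were found in 17.9% of the spots of NEJ634, 1.15% to 1.48% of those of NEJ146, 1.72% in NEJ638 and 0.0396% to 0.587% in NEJ687, NEJ723, NEJ654 and NEJ677. NEJ634 has an area that the authors called off tissue and that the called tissue encloses. Of its 339 spots at 20 per 10000 or more, 56 touched that area, 44 lay 2 to 3 steps from it and 239 lay further away, which are 87.5%, 31.2% and 14.2% of the tissue spots at those distances.

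**Figure D2:**
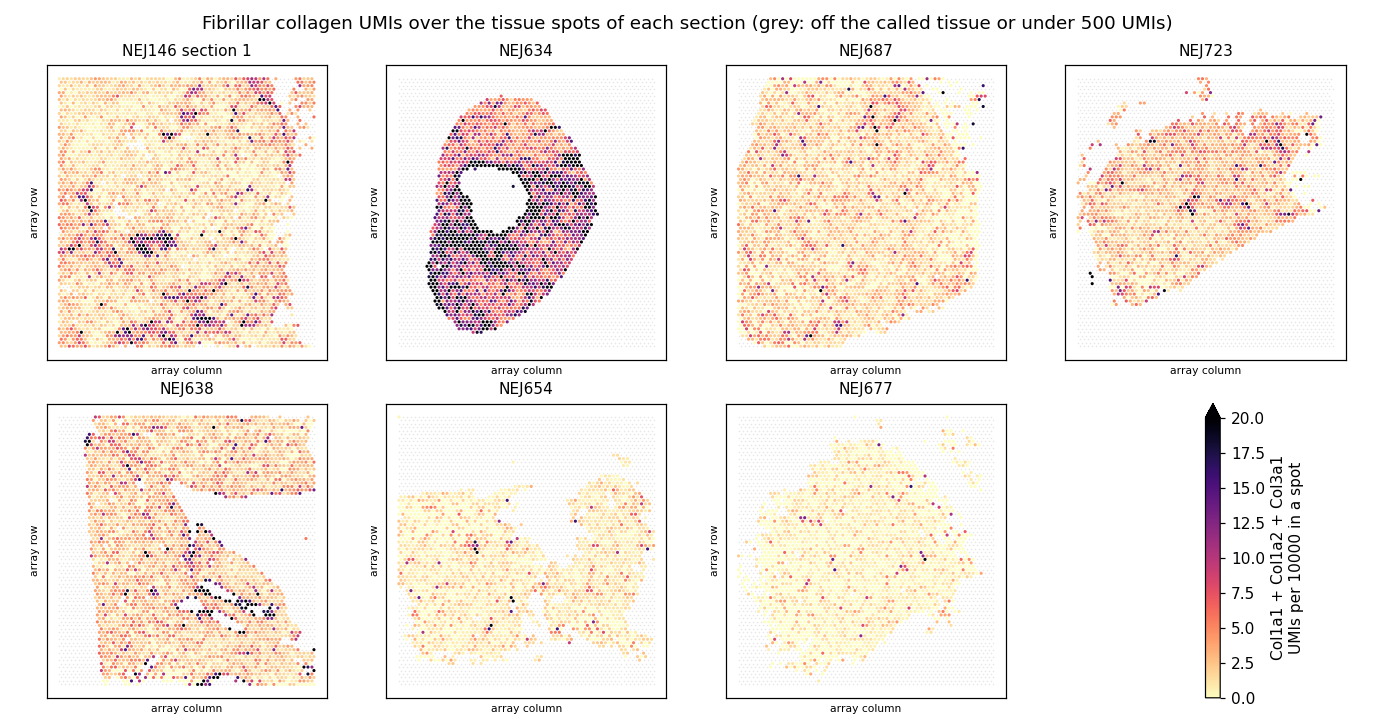
Summed UMIs of Col1a1, Col1a2 and Col3a1 per 10000 UMIs of a spot (color, same scale in all panels, values above 20 in the darkest color) at the array position of each spot, for the 6 tissues with 1 section and NEJ146 section 1. Grey spots were off the called tissue or had under 500 UMIs. In NEJ634 the darkest color covers 17.9% of spots, along the rim of the enclosed gap and elsewhere in the section.

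The enclosed area of NEJ634 held 231 spots, and the steps from it were counted after the maps had been seen. Spots touching it (64 spots, median 20360 UMIs) had 1625 CPM of Col1a1 (1558 to 1695), 1777 of Col1a2, 2006 of Col3a1, 492 of Serpinh1, 1345 of Sparc and 751 of Col4a1. Spots at least 4 steps from it and from the outside (1184 spots, median 28848 UMIs) had 265 CPM of Col1a1, 303 of Col1a2, 505 of Col3a1, 140 of Serpinh1, 425 of Sparc and 350 of Col4a1. The rim was thus 6.11-fold above the interior for Col1a1, 5.84-fold for Col1a2, 3.96-fold for Col3a1, 3.51-fold for Serpinh1, 3.16-fold for Sparc and 2.15-fold for Col4a1. Acta2 was at 216 against 44.9 CPM and Tagln at 106 against 27.2 CPM, while Lum (147 against 93.6 CPM, 1.56-fold) and Dcn (247 against 150 CPM, 1.64-fold) differed less. In all, 8 of the 10 members were 2-fold higher at the rim, beside 2.76% of the 8537 genes of at least 10 CPM in NEJ634.

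For Col1a1, most of the difference lay in the first ring of spots. Dcn fell more gradually, with most of its difference further in, and Lum did not fall steadily from step to step. Col1a1 was at 1625 CPM at 1 step from the enclosed area, 457 at 2 steps, 445 at 3, 321 at 4 and 264 to 303 at 5 to 8 steps. Spots that touched the outside had 286 CPM of Col1a1, 607 of Col3a1 and 40.3 of Acta2, closer to the interior than to the rim. Dcn, at 222 CPM there, was closer to the rim, and Lum, at 117 CPM, lay about midway. The 231 spots inside the enclosed area were themselves not empty, with a median of 13101 UMIs, 671 CPM of Col1a1, 1017 of Col3a1, 148 of Acta2 and 111 of Tagln. With the interior spots of NEJ634 alone (1168 spots at least 4 steps from any off-tissue position), Col1a1 was still 1.504 and Serpinh1 1.61 on the log2 scale above the highest of the other 6 tissues, and Col3a1 was at 0.92, so that 4 of the 10 members stayed 2-fold above, beside 0.199% of all genes.

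Other genes shared the rim. Of 11 matricellular genes and fibronectin, 10 were 2-fold higher there than in the interior, led by Thbs1 (thrombospondin 1, 74.1 against 9.59 CPM), Postn (293 against 41.0 CPM) and Tnc (tenascin C, 105 against 14.3 CPM). Of 11 other collagen chains 9 were higher, with Col5a1 at 395 against 69.4 CPM, and of 14 collagen-modifying enzymes 4 were, with the cross-linking enzyme genes Lox (71.1 against 9.07 CPM) and Loxl2 (68.9 against 11.2 CPM). The protease inhibitor gene Timp1 was at 152 against 19.7 CPM. None of 8 basement membrane, 7 stellate or 8 endothelial genes was 2-fold higher or lower at the rim. Of 5 genes of the biliary list 3 were higher, Krt19 at 206 against 42.0 CPM, and Lyz2 was the 1 of 8 macrophage genes, at 1307 against 449 CPM. Of 4 hepatoblast tumor genes 1 was higher, Dlk1 at 266 against 103 CPM. Afp, Igf2 and H19 were at 0.66, 0.77 and 0.92 of the interior. Biliary markers summed to 1018 CPM at the rim and 545 CPM in the interior, macrophage markers to 2403 and 1300 CPM, most of the difference being Lyz2 while the Kupffer cell genes Clec4f, Vsig4 and Cd5l were at 0.91 to 0.97 of the interior, mesothelial markers to 5.24 CPM (7 UMIs) and 2.63 CPM, and hepatocyte markers to 24295 and 35517 CPM. The part of these cell types at the rim was not tested, and the tissue image that could show the enclosed area was not analysed here.

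NEJ638 had 2 enclosed areas of at least 20 spots, the least size counted, with 42 spots in all. Smaller gaps in the called tissue were not counted, so the interior here (2441 spots) can include spots beside them. The margin comparison described below takes every off-tissue position, and its interior in NEJ638 (1589 spots) had 30.8 CPM of Col1a1. The 2 enclosed areas were touched by 54 tissue spots. Col1a1 was at 336 CPM in those (304 to 370) and 44.9 CPM in the interior (7.33-fold), Col1a2 at 452 against 72.7, Col3a1 at 844 against 237, Acta2 at 71.96 against 12.4 (5.44-fold, from 87 UMIs) and Lum at 81.1 against 30.4 CPM. There 7 of the 10 members were 2-fold higher, beside 1.16% of 7406 genes, and Col4a1 (1.55-fold), Sparc (1.69-fold) and Dcn (1.54-fold) were not. All 3 portal fibroblast and mesenchyme genes of at least 10 CPM in NEJ638 were 2-fold higher at this rim, while 1 of 6 in NEJ634, Fbln2 (103 against 14.1 CPM), was higher at the rim there.

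Taking all margin spots together, the tissue margin against spots at least 3 steps further in, the members split by tissue. In NEJ638, 5 of the 10 were 2-fold higher at the margin, beside 0.486% of all genes, with Acta2 at 35.9 against 7.45 CPM and Col1a1 at 134 against 30.8 CPM. In NEJ634 none reached 2-fold, beside 0.316%, with Col1a2 the nearest at 1.98-fold. In NEJ687, where 113 spots formed the margin, Dcn was 2.14-fold higher, beside 0.539%, and Acta2 was at 0.57 of the interior. In NEJ723 no member was 2-fold higher, beside 0.0719% of all genes, and in NEJ654 and NEJ677 neither a member nor any other gene of at least 10 CPM was. This covers 8 members in NEJ654, where Acta2 and Tagln were under 10 CPM, and 7 in NEJ677, where Col1a1 was as well. Mesothelial markers summed to 20.3 CPM (228 UMIs) at the NEJ638 margin against 4.35 CPM further in, and in NEJ634 to 12.4 (95 UMIs) against 2.63 CPM. In NEJ723, NEJ654, NEJ677 and NEJ687 they were at 0.54 to 0.999 of the interior. The part of these cells in the margin levels was not tested. In NEJ146 the margin was not analysed, since no tissue call was used. The median off-tissue spot held 6660 to 11895 UMIs, so the margin is that of the call.

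**Figure D3:**
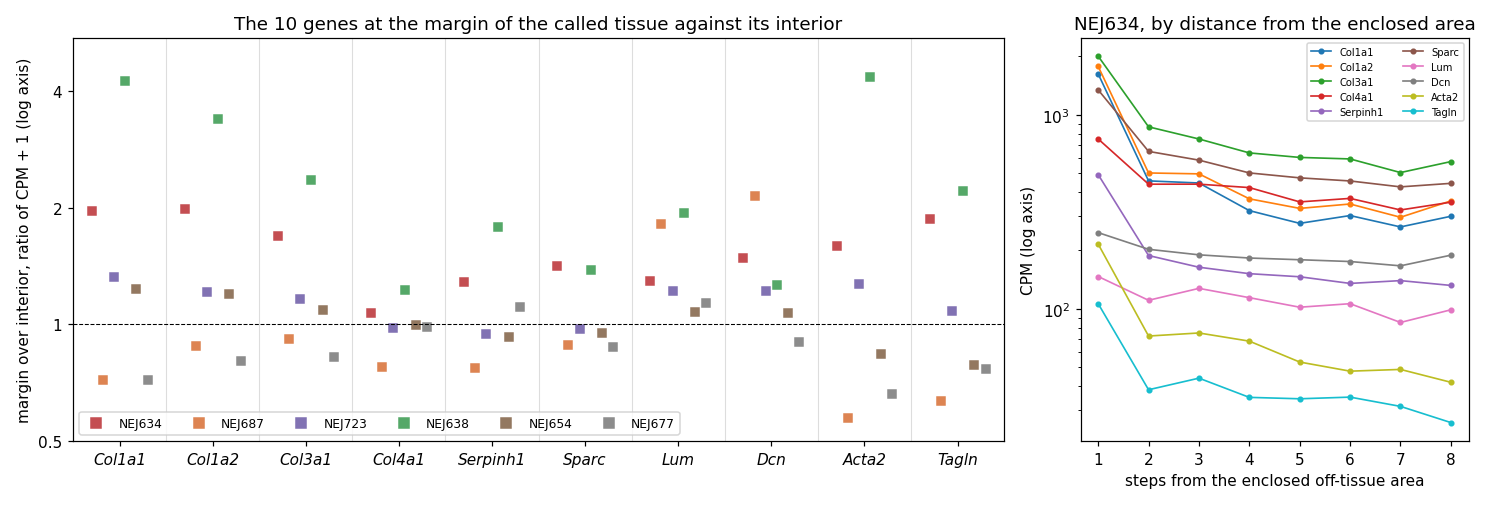
Left, ratio of CPM + 1 at the margin of the called tissue over its interior (log axis) for the 10 genes in the 6 tissues with calls, with equality dashed. Right, CPM of the 10 genes in NEJ634 (log axis) by steps from the enclosed off-tissue area, where Col1a1 is at 1625 CPM at 1 step and 457 CPM at 2 steps.

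Spatial order was measured first by Moran's I, the correlation of a gene's log share with that of the spots around it, which is near 0 without spatial order and higher with it. Col1a1 was at 0.457 in NEJ634, 0.355 ± 0.054 (SD, n = 4 sections) in NEJ146, 0.185 in NEJ723 and 0.123 in NEJ687. Col1a2 was at 0.464 in NEJ634, 0.377 ± 0.067 (SD, n = 4 sections) in NEJ146, 0.229 in NEJ723 and 0.0996 in NEJ687. Serpinh1 stood out more, at 0.429 in NEJ634, 0.153 ± 0.021 (SD, n = 4 sections) in NEJ146, 0.0768 in NEJ687 and 0.0691 in NEJ723. Col4a1 was at 0.439 in NEJ634, 0.374 in NEJ723, 0.224 ± 0.074 (SD, n = 4 sections) in NEJ146 and 0.171 in NEJ687. The median over all genes of at least 10 CPM was 0.0206 in NEJ634 and 0.0110 to 0.0516 in the other sections.

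For the other members NEJ634 was not clearly the highest. Col3a1 was at 0.407 in NEJ634 and 0.396 ± 0.051 (SD, n = 4 sections) in NEJ146, so that without NEJ146 section 1 the difference was -0.00778, and Sparc at 0.367 in NEJ634, 0.368 in NEJ723 and 0.301 ± 0.053 (SD, n = 4 sections) in NEJ146. Dcn was at 0.546 ± 0.021 (SD, n = 4 sections) in NEJ146 and 0.369 in NEJ634, Lum at 0.337 ± 0.026 (SD, n = 4 sections) and 0.230, Acta2 at 0.294 ± 0.025 (SD, n = 4 sections) and 0.221, and Tagln at 0.291 ± 0.029 (SD, n = 4 sections) and 0.116. Moran's I was highest in NEJ634 of the 4 tissues for 5 of the 10 members, beside 9.30% of the 6905 genes at 10 CPM in all 4, and of NEJ634, NEJ687 and NEJ723 for 9 of the 10, beside 12.8%.

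Moran's I can rise with the number of UMIs, and NEJ634 had the most collagen UMIs per spot. When each gene was thinned to its lowest UMI count among these sections, NEJ634 was highest of the 4 for 2 of the 10 members, Serpinh1 (by 0.0860) and Col4a1 (by 0.0516), beside 8.62% of the 6905 genes thinned alike (means of 5 draws, where the members have 20), while the difference from the highest of the other 3 was -0.00723 for Col1a1, -0.0110 for Col1a2 and -0.0550 for Col3a1. It stayed highest of NEJ634, NEJ687 and NEJ723 for 7 of the 10, beside 10.2%. This thinning made the UMIs of a gene equal per section and not per spot. NEJ634 had 1890 tissue spots, against 2396 in NEJ723, 4458 in NEJ687 and 4171 to 4878 in the NEJ146 sections. After thinning it therefore still had more UMIs of a gene per spot, and the differences that remained are not matched for depth per spot.

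The neighbor pair ratio is a measure whose expected value does not contain depth. It is the sum over adjacent spots of the product of their UMIs, over the sum expected if the gene had the same share in every spot, and is 1 without order. It was highest in NEJ146 of the 4 tissues for all 10 members, beside 39.7% of all genes, and highest in NEJ634 for none, beside 21.9%. Col1a1 was at 2.04 ± 0.278 (SD, n = 4 sections) in NEJ146, 1.40 in NEJ687, 1.26 in NEJ634 and 1.23 in NEJ723. In NEJ638, which is not among these 4, Col1a1 was higher still at 2.69, and Col1a2 at 2.47 against 1.96 ± 0.163 (SD, n = 4 sections) in NEJ146. With equal weights NEJ638 was not separated from NEJ146. Col1a1 was at 2.47 against 2.19 ± 0.343 and Col1a2 at 2.26 against 2.09 ± 0.167 (SD, n = 4 sections), gaps under 2 times the SD. NEJ146 section 4 alone was at 2.62 for Col1a1. Acta2 was at 4.50 ± 0.971 (SD, n = 4 sections) in NEJ146, 1.32 in NEJ723, 1.26 in NEJ687 and 1.18 in NEJ634. In the other tissues Acta2 was at 6.49 in NEJ677, from 65 UMIs, 3.85 in NEJ654 and 2.75 in NEJ638. With every pair weighted equally NEJ146 was the highest, at 6.73 ± 0.439 (SD, n = 4 sections) against 5.504 in NEJ677. NEJ677, NEJ654 and NEJ638 are the tissues with the lowest Acta2 levels.

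The ratio weights pairs by spot totals, and in NEJ634 the share of Col1a1 was lower in spots with more UMIs (Spearman ρ = -0.38 over 1890 spots of 1 section, a description), whereas ρ was 0.08 to 0.24 in the other tissues. With every pair weighted equally, an alternative chosen after the data had been seen, Col1a1 was at 1.43 in NEJ634, 1.34 in NEJ687 and 1.19 in NEJ723, Serpinh1 at 1.33, 1.16 and 1.05, and Acta2 at 1.36, 1.24 and 1.11. NEJ634 was then highest of these 3 tissues for 7 of the 10 members, beside 41.0% of all genes, and with weights by spot totals for 1 (Col4a1), beside 34.1%. NEJ146 was above NEJ634 for all 10 with equal weights, beside 66.6% of all genes, with Col1a1 at 2.19 ± 0.343 and Acta2 at 6.73 ± 0.439 (SD, n = 4 sections).

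**Figure D4:**
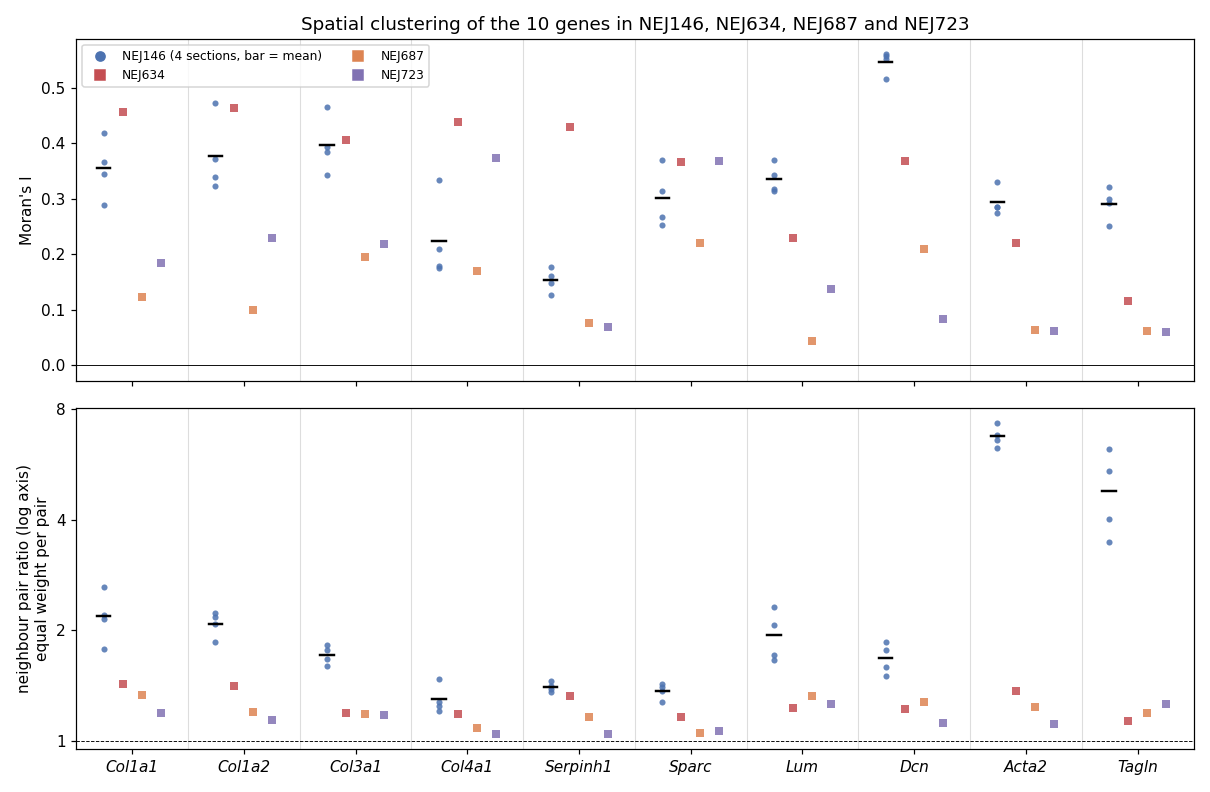
Moran's I (top) and the neighbor pair ratio with equal weight per pair (bottom, log axis, 1 dashed) of the 10 genes in NEJ146, NEJ634, NEJ687 and NEJ723. Circles are the 4 NEJ146 sections with the mean as a bar, squares single sections. NEJ634 is highest in Moran's I for Col1a1, Col1a2, Col3a1, Col4a1 and Serpinh1, while the pair ratio is highest in NEJ146 for each gene. For Col3a1 the difference from NEJ146 is within the spread of its sections. With genes thinned to the lowest UMI count, NEJ634 is highest in Moran's I for Col4a1 and Serpinh1 only.

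With equal weights, the ratio at 10 steps was below that at 1 step in 68 of the 70 pairs of a member and a tissue, and the ratio at 2 steps in 65. Acta2 in NEJ723 was among the rest, at 1.11 at 1 step and 1.31 at 2 steps. Acta2 in NEJ146 went from 6.73 at 1 step to 3.47 at 2, 1.81 at 5 and 1.17 at 10 steps, and Col1a1 from 2.19 to 1.86, 1.38 and 1.13. Dcn in NEJ146 stayed high, from 1.68 at 1 step to 1.47 at 5 and 1.38 at 10 steps. In NEJ634, Col1a1 went from 1.43 at 1 step to 1.13 at 5 and 1.18 at 10 steps, and Col4a1 from 1.19 to 1.12 and 1.12. Acta2 in NEJ677 was at 5.504 at 1 step and 1.42 at 2 steps, from 65 UMIs in all.

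**Figure D5:**
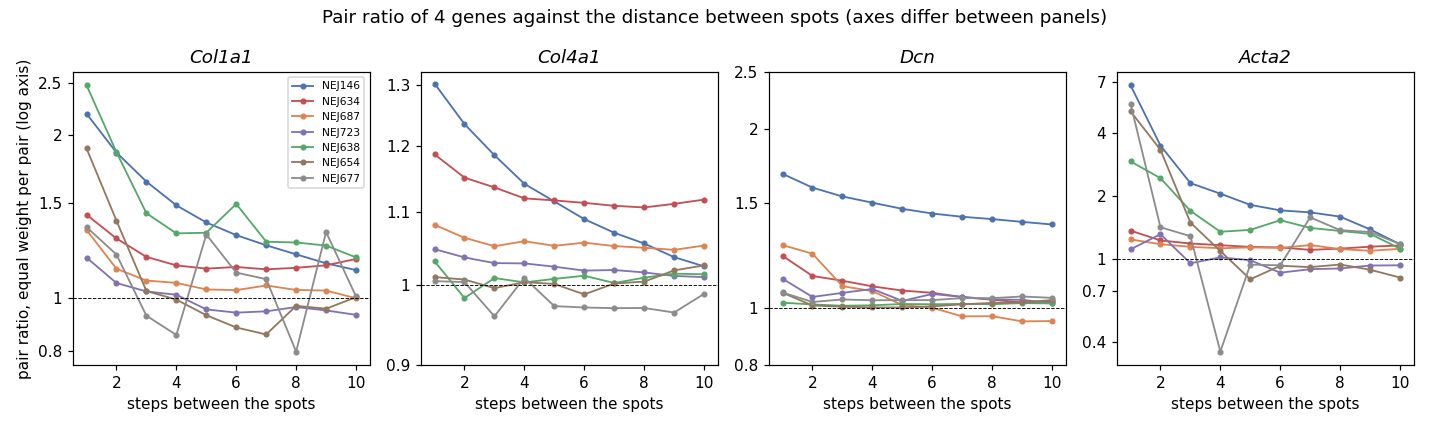
Pair ratio with equal weight per pair (log axis, scale differs between panels, 1 dashed) of Col1a1, Col4a1, Dcn and Acta2 against the number of steps between the spots, in the 7 tissues, with NEJ146 as the mean of 4 sections. In NEJ146, Acta2 goes from 6.73 at 1 step to 1.17 at 10 steps and Dcn from 1.68 to 1.38.

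Members were found in the same spots to unequal degrees. The same-spot ratio is the analogous ratio for the UMIs of 2 genes in 1 spot, given here with equal weight per spot. For Col1a1 and Col1a2, which form 1 protein, it was 3.14 ± 0.475 (SD, n = 4 sections) in NEJ146, 2.43 in NEJ634, 2.04 in NEJ687, 1.90 in NEJ723 and 3.77 to 6.17 in the other 3 tissues. For Acta2 and Tagln it was 16.3 ± 4.39 (SD, n = 4 sections) in NEJ146, 11.5 in NEJ654, 8.03 in NEJ677 and 6.08 in NEJ638, against 2.36 in NEJ723, 1.87 in NEJ634 and 1.59 in NEJ687. The summed fibrillar collagens and Acta2 were at 5.35 in NEJ677, 4.36 in NEJ654 and 4.35 in NEJ638, 3.25 in NEJ146 and 1.39 to 2.03 in NEJ634, NEJ687 and NEJ723. With weights by spot totals the NEJ677 value was 7.19. The Acta2 ratios of NEJ677 and NEJ654, also those with Tagln, rest on only 65 and 192 Acta2 UMIs. Col4a1 and Col4a2 were at 1.15 to 1.53 in all 7, and Lum and Dcn at 1.199 to 2.31. Spearman ρ over spots ordered the tissues otherwise. For Col1a1 and Col1a2, ρ was 0.78 in NEJ634, 0.43 ± 0.042 (SD, n = 4 sections) in NEJ146 and 0.15 to 0.33 elsewhere. For Acta2 and Tagln, ρ was 0.27 in NEJ634, 0.25 ± 0.026 (SD, n = 4 sections) in NEJ146 and 0.10 to 0.23 elsewhere.

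Fibrillar collagen and cell type lists shared spots by tissue. The ratio with the portal fibroblast and mesenchyme list was 3.86 in NEJ638, 2.91 in NEJ677, 2.53 in NEJ654, 2.51 in NEJ146, 1.70 in NEJ687, 1.57 in NEJ634 and 1.36 in NEJ723. With the stellate list it was 1.51 in NEJ146 and 1.05 to 1.198 in the other 6 tissues, and with biliary markers 2.37 in NEJ638, 1.65 in NEJ146, 1.31 in NEJ634 and 1.02 to 1.36 elsewhere. With endothelial markers it was 1.09 to 1.29, and with hepatocyte markers 0.91 in NEJ634 and 0.96 to 1.03 in the others. With mesothelial markers it was 3.48 in NEJ638 (398 UMIs), 3.37 in NEJ654 (34 UMIs), 2.79 in NEJ677 (19 UMIs) and 2.10 in NEJ146. In NEJ634, NEJ687 and NEJ723 it was 1.59 to 1.72. Dcn and the stellate list were at 1.62 in NEJ146, 1.44 in NEJ687, 1.34 in NEJ634 and 1.05 to 1.24 in the rest. Spearman ρ of the fibrillar collagens over spots gave another order for some lists. With the portal fibroblast and mesenchyme list ρ was 0.63 in NEJ634, 0.52 in NEJ146 and 0.19 to 0.28 elsewhere. With biliary markers ρ was 0.54 in NEJ634, 0.16 in NEJ146 and 0.014 to 0.13 elsewhere. With the stellate list ρ was highest in NEJ146 (0.42, against 0.22 in NEJ634), and with endothelial markers lowest in NEJ634 (0.034). The spots are not replicates, and these ratios and correlations describe the sections.

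Over the 1890 spots of NEJ634, the genes ranked most like the summed fibrillar collagens, as Spearman ρ with no test, were led by the members Sparc (0.74) and Col4a1 (0.72). The 10 closest genes that are no members were Igfbp7 (0.70), the proteoglycan gene Bgn (biglycan, 0.68), Col4a2 (0.68), Col6a3 (0.68), S100a6 (0.63), Fn1 (fibronectin, 0.60), Cd63 (0.56), Col5a1 (0.55), Col5a2 (0.54) and Spp1 (0.53), beside a median of 0.011 over 8537 genes. Serpinh1 was at 0.62, Lum at 0.52, Acta2 at 0.43, Tagln at 0.34 and Dcn at 0.22, which ranks 358. The same ρ for Dcn was 0.44 ± 0.020 (SD, n = 4 sections) in NEJ146, close to the 0.46 ± 0.050 of Sparc there. Among the lowest were Apoa2 (-0.61), Fabp1 (-0.58), Uqcr11 (-0.57) and Scp2 (-0.54), of which Apoa2 and Fabp1 are hepatocyte genes. Spots share the section, and both ranks and UMIs per 10000 depend on spot totals.

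Over the 7 tissues, the genes whose log2(CPM + 1) was most like the mean of the 10 members were Fstl1 (follistatin-like 1, Pearson r = 0.994), Sult1c2 (0.983), Tuba1a (a tubulin, 0.982), Efemp2 (fibulin 4, an elastic fiber protein, 0.981) and Mrpl49 (0.980). With 7 points that share no replicate, this likeness is a description. Fstl1 was at 40.8 CPM in NEJ634, 15.0 in NEJ638, 12.03 to 13.52 in NEJ146, NEJ687 and NEJ723, and 4.51 to 5.98 in NEJ654 and NEJ677.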

How the data were processed

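Matrices deposited by the authors hold UMI counts for every gene and array spot, neither normalized nor restricted to tissue. The submitters' processing notes name Space Ranger 1.3 and mm10 for the 6 tissues with 1 section and Cell Ranger 6.0 for NEJ146, whose build is not given in the sources used here. Position files gave array coordinates and tissue calls for the 6 tissues, and the NEJ146 barcodes took the same coordinates.

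UMIs were summed over tissue spots and divided by the section total (CPM). Ratios used CPM + 1, and a gene counted at 2-fold. Background genes had a mean of at least 10 CPM. Moran's I used log(1 + UMIs per 10000) and up to 6 adjacent spots. Intervals are exact Poisson 95% intervals, or exact binomial for UMI ratios. Adjacent sections of 1 tissue are technical replicates. The 4 NEJ146 sections differed by more than sampling noise (chi-square per degree of freedom 14.8 to 20.5 among sections 1 to 3 and 67.6 to 91.6 against section 4). The members and gene lists were chosen with earlier results of these data known. Named genes were the members, the list genes past 2-fold (at most 3 either way) and the genes most like the members. Ccn1 and Ccn2 were matched to older symbols in the files. Computations used Python 3.11.15, numpy 2.4.6, scipy 1.17.1 and pandas 2.3.3, and the measures were tested on simulated data.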

Additional observations from a re-analysis of the deposited data

Results flagged for a closer look

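The 10 genes had UMIs outside the called tissue in each of the 6 tissues with calls, a signal in spots that the comparisons of levels between tissues did not use, except under the alternative that took all array spots of at least 8000 UMIs. Their summed level off tissue was 2538 CPM in NEJ634 (2561 CPM on tissue), 1437 CPM in NEJ638 (1126), 1067 CPM in NEJ723 (1086), 871 CPM in NEJ687 (786), 557 CPM in NEJ654 (602) and 393 CPM in NEJ677 (480), and the median off-tissue spot held 6660 to 11895 UMIs. No position on these arrays was known to be free of tissue RNA. Among the 4 NEJ146 sections, no level, Moran's I or pair ratio of a member had a section beyond the 95% critical value of Dixon's ratio, the gap to the nearest section over the range (0 of 30 sets). Section 4 was nonetheless the lowest in level for all 10 genes, and over all genes its chi-square per degree of freedom against the other sections was 67.6 to 91.6, where it was 14.8 to 20.5 between the other 3.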

How the results depend on the processing

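No paired analysis was possible because the tissues share only replicate number 1 and no comparison rests on a test. The count of 5 members 2-fold above the other 6 tissues became 3 with median-of-ratios size factors, 3 at a 3-fold threshold and 3 with a filter at a mean of 50 CPM, which Serpinh1 and Lum do not pass. That filter also gave 3 in place of 5 against NEJ146, NEJ687 and NEJ723, and 1 in place of 2 for members higher in all of the 4 tissues. Other settings gave 4 to 7 for the first 2 counts, and leaving out each NEJ146 section gave 5 and 5 throughout. Moran's I was highest in NEJ634 of the 4 tissues for 2 members in place of 5 with genes thinned to the lowest UMI count, with Col1a1 at -0.00723, Col1a2 at -0.0110 and Col3a1 at -0.0550 against the highest other tissue. The Col3a1 difference also reversed with spots within 2 steps (-0.0104), square roots (-6.15e-05), without NEJ634 margin spots (-0.0119), with NEJ634 interior spots (-0.0338) and, over the settings that each left out 1 NEJ146 section, ran from -0.00778 (without section 1) to 0.0334. Leaving out each NEJ146 section gave 4 to 5 members, ranks in place of logs 7, and the remaining settings 4 to 6. The pair ratio was highest in NEJ634 of NEJ634, NEJ687 and NEJ723 for 3 members within 2 steps, 6 with spots thinned to an equal UMI count, 6 with all array spots of at least 8000 UMIs, 0 with NEJ634 interior spots and 7 with equal weights, against 1. It was highest in NEJ634 of the 4 tissues for 0 members under every setting. Settings on interior spots, on all array spots and on equal weights were chosen after seeing the data. The cause of these differences was not tested. Depth limited Acta2 in NEJ677 (65 UMIs) and NEJ654 (192 UMIs) most.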
